A study of Macaca mulatta with 24 samples.

Results

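The aryl hydrocarbon receptor (AHR), its inducible target CYP1A1 and their close partners were followed in ileum of rhesus macaques after total-body irradiation (TBI). The genes are AHR, AHRR, ARNT, CYP1A1, CYP1A2, CYP1B1, TIPARP and NQO1, and every probe that the deposited normalized table names for any of them was taken. This gave 10 probes of 43603: 1 for AHR (A_01_P1761726), 2 for CYP1A1 (A_01_P012198 and A_01_P1671296), 1 for CYP1B1 (A_01_P1682496), 3 for TIPARP and 3 for NQO1. AHRR, ARNT and CYP1A2 have no probe under those symbols, so 5 of the 8 genes were followed. A further probe (A_01_P1686016), which has no symbol in that table, carries an accession that RefSeq gives to CYP1A2. It was above background on 0 of 24 arrays and has no further values here. A probe entered the tests if all arrays of 1 or more groups showed it well above background. This held for 9 of the 10 probes, and for 36108 probes in all. The dimmest TIPARP probe was above background on 0 of 24 arrays and has no further values here.

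The animals were young-adult males. TBI was 1 exposure of the whole body to cobalt-60 gamma rays, the controls were sham-irradiated, and RNA came from full-thickness pieces of ileum. There were 4 unirradiated animals (0 Gy, labelled day 4), 4 animals at 6.7 Gy and 4 at 7.4 Gy on day 4, the same numbers on day 7, and 2 at each dose on day 12. For the day 12 animals the treatment text of the labels names day 21, while their titles and day field give day 12. Each animal gave 1 array, no RNA was pooled, and the same 4 controls serve every comparison, so the comparisons are not independent of each other. The level of a probe is its log2 intensity minus the 75th percentile of the array, so that 0 stands for the 75th percentile. Between 72.7% and 88.1% of probes were well above background on an array. The ileal bile acid-binding protein FABP6 had a mean level of 8.74 in unirradiated ileum. This transcript of ileal enterocytes was thus abundant in tissue labelled ileum. Control replicate 1 stood apart in the summed level of 4 smooth muscle markers relative to the array, at 100.7, where the other controls had 450.5 to 504.0 and the irradiated animals 285.9 or more.

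AHR is a ligand-activated transcription factor that waits in the cytosol with HSP90 and, once bound by a planar aromatic ligand, enters the nucleus and pairs with ARNT. In the gut its ligands come from the diet, from microbial tryptophan metabolism and from the host. The pair induces CYP1A1, CYP1A2 and CYP1B1, monooxygenases that can oxidize the ligand itself, and TIPARP and AHRR, which dampen the receptor. NQO1, a quinone reductase, is induced through AHR and through the oxidative stress factor NRF2. In the intestinal lining CYP1A1 transcript is largely made by enterocytes and follows exposure to ligand.

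The level of CYP1A1 differed between animals more than that of nearly any other transcript. By the brighter probe the unirradiated animals had levels of 3.71, 3.29, -1.96 and 2.47. On day 4 the levels were -4.22, -5.33, -3.05 and -8.24 after 6.7-Gy TBI. After 7.4-Gy TBI they were 5.65, -5.20, -0.61 and -6.36. All 4 animals of the lower dose were below all 4 controls, while the higher-dose group held the highest animal of all 24 and also some of the lowest.

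On day 7 the brighter CYP1A1 probe had levels of -0.47, -1.72, 1.02 and -1.38 after 6.7-Gy TBI. The levels after 7.4-Gy TBI were -0.56, -1.11, -2.82 and -6.11. On day 12 they were -1.84 and 1.07 at the lower dose and -2.96 and -4.52 at the higher dose. Control replicate 3, at -1.96, lay within the range of the irradiated animals, and the other controls were above all irradiated animals but 7.4-Gy day 4 replicate 1. In intensity units the probe ran from 4.16, not above background, to 52515, and no spot was saturated.

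**Figure D1:**
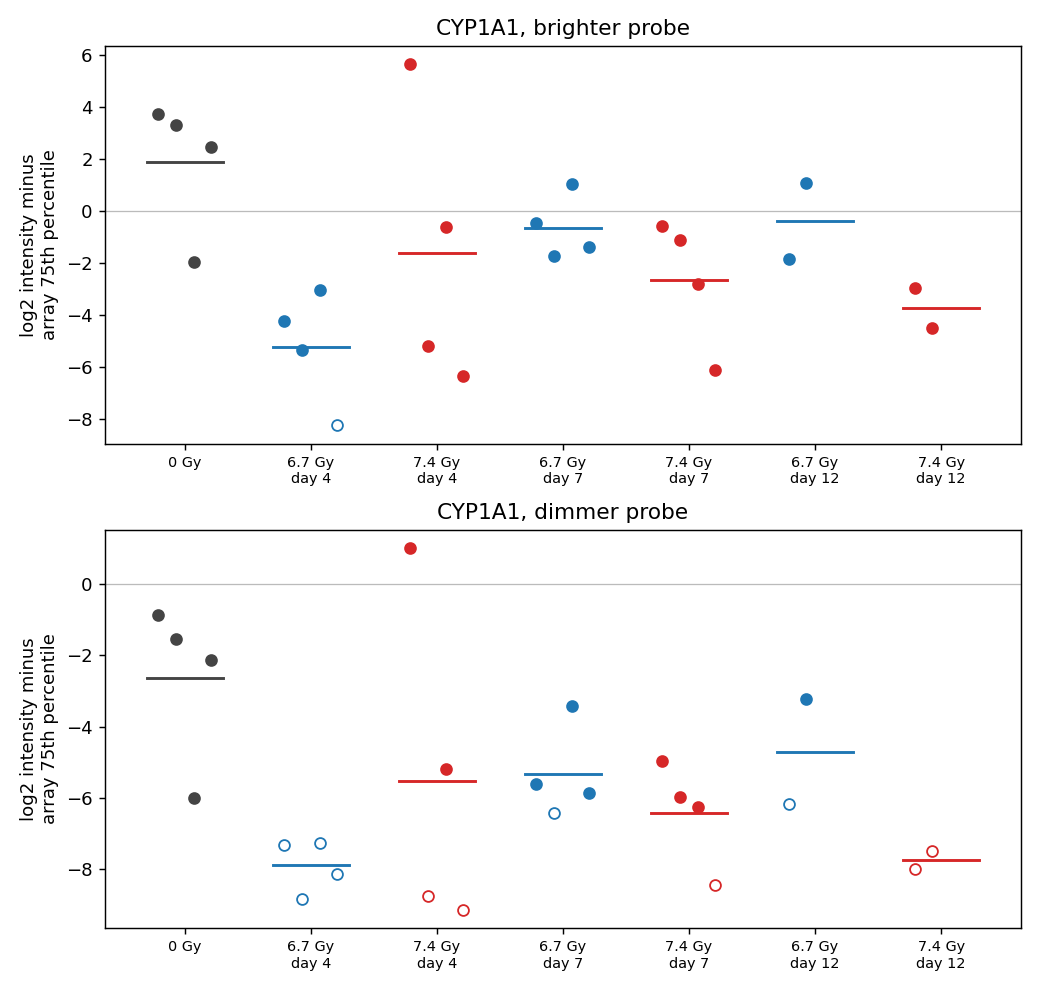
Level of CYP1A1 (log2 intensity minus the 75th percentile of the array) in each of 24 animals, by group, for the brighter probe (top) and the dimmer probe (bottom). Points are animals, open points were not above background, and lines are group means. The 6.7-Gy day 4 animals sit at -3.05 or lower in the top panel, below all 4 controls, and 7.4-Gy day 4 replicate 1 stands highest in both panels.

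The dimmer CYP1A1 probe ordered the animals in much the same way. Its levels in unirradiated ileum were -0.89, -1.55, -6.00 and -2.15, and in the 6.7-Gy day 4 group they were -7.32, -8.83, -7.27 and -8.12. That group was above background on 0 of 4 arrays. After 7.4-Gy TBI on day 4 the levels were 0.99, -8.75, -5.19 and -9.13, with 2 of 4 arrays above background. Over the 24 animals the levels of both probes had a Pearson correlation of 0.958, and their deviations from the group means one of 0.942. The dimmer probe was above background on 13 of these arrays, so both correlations hold many levels that were not measured well. Over those 13 arrays alone it spanned 7.25 log2 units. Day 7 levels of the dimmer probe ran from -6.43 to -3.41 at 6.7 Gy and from -8.43 to -4.96 at 7.4 Gy, and day 12 levels were -6.18 and -3.22 at the lower and -7.98 and -7.48 at the higher dose.

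Compared with unirradiated ileum, the mean level of the brighter CYP1A1 probe in the 6.7-Gy day 4 group was lower by a log2 difference of -7.09 (standard error 1.96, 95% interval -11.18 to -3.0). The means were -5.21 ± 2.23 (SD, n = 4) and 1.88 ± 2.61 (SD, n = 4). Limma's adjusted p was 0.0563, so the difference was not called at the limits of an adjusted p under 0.05 and a fold change of 2. One array, 6.7-Gy replicate 4, was not above background, so that the size of the difference is not exact: it was -6.08 without that animal and -5.27 with normexp background correction (adjusted p = 0.142 and 0.0643). The exact two-sided permutation test over the 70 arrangements of the animals gave p = 0.0286, the smallest it can give for 4 against 4. Among all tested probes, 7.71% had the irradiated group wholly below the controls in this comparison.

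Control replicate 3 decides on which side of the limit this difference falls: without it the difference was -8.37 with an adjusted p of 0.0492. Without any 1 other animal of the comparison the difference ran from -7.81 to -6.08, with adjusted p from 0.0551 to 0.142, and was -6.48 without control replicate 1. With all animals kept, and without a replicate term, the adjusted p ran from 0.0474, with slide as a random block, to 0.209, with the methods' t-test. It was also under the limit with an intensity trend and robust moderation (0.049). With array position as a covariate the difference was -6.65 (adjusted p = 0.203). On slide 1, which holds both groups, the irradiated animal differed from the control by -6.76 log2 units. On slide 2 the irradiated animal was not above background.

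The dimmer probe was lower in that group by at least 12.2-fold, a limit that sets each array not above background to its lowest signal above background (limma adjusted p = 0.0731). In the 7.4-Gy day 12 group its mean was lower by at least 14.2-fold (adjusted p = 0.458). Both limits depend on the processing and on the controls. With normexp background correction they were 4.33-fold in both groups, and without control replicate 3 they were 26.4-fold and 30.8-fold. Without control replicate 1 they were 8.11-fold and 9.44-fold. In a piece of whole gut wall, fewer cells of a type and less RNA per cell cannot be told apart. Beside these values, the 8 tested enterocyte markers had a median log2 change of -0.73 in the 6.7-Gy day 4 group and of -0.42 after 7.4-Gy TBI, against -0.07 and -0.05 over all tested genes. Of the 8, 2 were called lower at each dose, where 0.444% and 0.824% of all tested genes were. VIL1, a brush border protein, changed by -1.32 and -1.27 (adjusted p = 0.00106 and 8.5e-04). Their summed level relative to the array ran from 615.4 to 867.6 in controls, from 234.3 to 606.4 in the 6.7-Gy animals and from 510.1 to 598.5 in the 7.4-Gy animals, so both irradiated groups lay below all controls by this sum. The sum is of unlogged levels, so that the brightest markers, such as FABP6, weigh most in it. By the mean of the 8 log2 levels both groups overlapped the controls, at 3.51 to 4.29 in controls, 2.31 to 4.21 in the 6.7-Gy and 3.15 to 3.93 in the 7.4-Gy animals. Of 3 tested goblet cell markers, CLCA1 and AGR2 were called lower at each dose and MUC2, the main mucin, had log2 differences of -0.39 and 0.29 (adjusted p = 0.418 and 0.597). The mean of the 3 log2 levels was 3.52 to 4.2 in controls, 2.59 to 3.26 in the 6.7-Gy and 2.59 to 3.26 in the 7.4-Gy animals, so both groups lay below all controls. Their sum ran from 96.9 to 143.2 in controls and from 51.6 to 78.2 in the 6.7-Gy animals, while the 7.4-Gy animals, at 58.8 to 102.1, overlapped the controls. Day 4 groups were also wholly below the controls by the mean of 3 B cell markers (-2.90 to -1.26 in controls, -4.17 to -3.03 and -3.94 to -3.28) and of 2 red blood cell markers (-0.36 to 0.82, -3.26 to -2.28 and -3.13 to -1.78). The red blood cell mean was below all controls on days 7 and 12 as well. The mean of 6 fibroblast markers was wholly above the controls (0.65 to 1.16 in controls, 1.20 to 2.11 and 1.62 to 2.39). That of 4 macrophage markers was so at 7.4 Gy (2.75 to 3.26, against 2.27 to 2.58) and overlapped the controls at 6.7 Gy. The part of these cells, enterocytes included, in the CYP1A1 values was not tested.

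At 7.4 Gy the day 4 animals did not move together. The log2 difference of CYP1A1 from unirradiated ileum was -3.51 (standard error 1.96, adjusted p = 0.29), and it was -5.93 without replicate 1 (adjusted p = 0.0571). It ran to -1.93 without replicate 4 and to -2.32 without replicate 2 of that group, and was -4.79 without control replicate 3. The dimmer probe was above background on 2 of 4 arrays of the group, and its difference, -2.87 (adjusted p = 0.282), was -0.89 with normexp background correction (adjusted p = 0.553). With 1 animal left out it ran from -5.04 to -1.67. The former, without replicate 1, passed the limits (adjusted p = 0.0297), but of the other 3 arrays of the group replicates 2 and 4 were not above background, so its size is not exact. On slide 3 replicate 1 was higher than the control of the same slide by 7.61, and on slide 4 the difference was -7.67. The group mean thus depends on single animals.

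Later differences of CYP1A1 from the controls were all below 0 and none was called. They were -2.52 (adjusted p = 0.77) and -4.53 (adjusted p = 0.322) on day 7, the lower dose first. On day 12 they were -2.26 (adjusted p = 0.808) and -5.62 (adjusted p = 0.549). With 1 animal left out the lower-dose values ran from -3.80 (without control replicate 3) to -1.90 on day 7, and on day 12 from -3.72 without replicate 2 to -0.81 without replicate 1 of that group. Both 7.4-Gy animals of day 12 were below all 4 controls, as were 9.37% of all tested probes, and the exact permutation test cannot go below p = 0.0667 with 2 against 4. All controls lie in array position 1 and the day 7 and day 12 arrays in positions 3 and 4, so that position and irradiation cannot be told apart on those days. The 7.4-Gy day 12 arrays were also scanned on another day than the controls.

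Set against all other transcripts, the spread of CYP1A1 between animals of the same group was extreme. The pooled SD within groups was 3.00 log2 units for the brighter probe, and 5 of 36108 tested probes had a larger one. For the dimmer probe it was 2.42, with 18 larger, and the median over all tested probes was 0.29. Over the 23 arrays on which it was above background the brighter probe spanned 12.0 log2 units, and 0 of 36108 tested probes spanned more over their own such arrays. The dimmer probe was above background on 13 arrays, so that its SD holds many levels that were not measured well. Within the groups the SD of the brighter probe was largest in the 7.4-Gy day 4 group (5.45) and smallest among the groups of 4 in the 6.7-Gy day 7 group (1.22). NQO1 also varied widely, with a pooled SD of 0.87 and 1287 tested probes above it. The pooled SD was 0.44 for CYP1B1, 0.27 for TIPARP and 0.16 for AHR, the last smaller than in about 9 of 10 probes (9.6% had a smaller one).

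**Figure D2:**
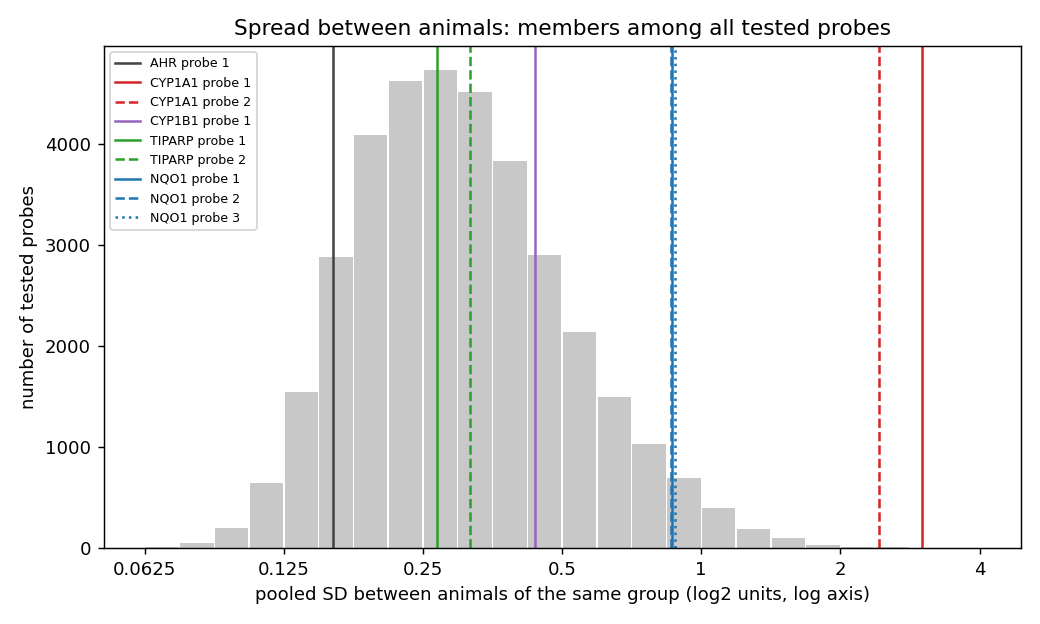
Histogram of the pooled SD between animals of the same group (log2 units, log axis) over 36108 tested probes, with vertical lines for the 9 tested probes of the 5 genes. The line of the brighter CYP1A1 probe stands at 3.00 at the far right, and that of AHR at 0.16 on the left side of the distribution.

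In no comparison with unirradiated ileum was any of the 5 genes called by limma, taking each by its brightest probe (0 of 5 in each of 6 comparisons, and likewise 0 of 5 by the methods' t-test after Benjamini-Hochberg adjustment). Of all tested probes, limma called 0.978% and 2.33% on day 4, 0.235% and 0.568% on day 7, and 0.108% and 0.0443% on day 12, the lower dose first. At an unadjusted limma p under 0.05 with a 2-fold change, CYP1A1 passed in the 6.7-Gy day 4 group (1 of 5 genes; 2.95% of all probes). On day 7 NQO1 passed at the lower dose (1.32% of all probes) and CYP1A1 at the higher dose (2.38%). On day 12 CYP1A1 passed at the higher dose (1.84%), with 0 of 5 at the lower dose (1.68%) and 0 of 5 in the 7.4-Gy day 4 group (3.98%). The moderated F test over the 7 group means passed for none of the 5 genes, with adjusted p from 0.0555 for CYP1B1 to 0.551 for NQO1, while 8.43% of all probes passed.

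**Figure D3:**
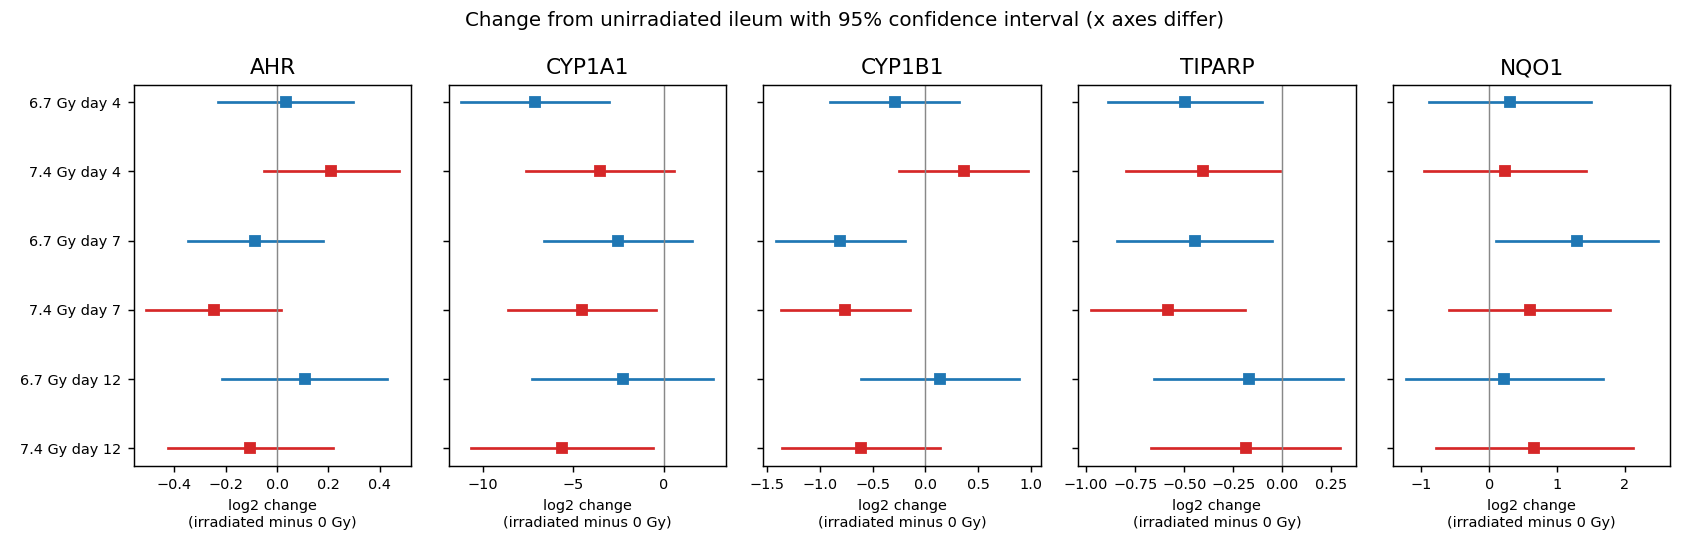
Log2 change of each of the 5 genes (brightest probe) from unirradiated ileum in the 6 irradiated groups, with limma's 95% interval. Squares are differences of group means, and each panel has its own x axis. The CYP1A1 squares all lie left of 0, from -7.09 to -2.26, and the TIPARP squares also lie left of 0, from -0.58 to -0.17.

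The receptor itself held a narrow range. AHR levels were -2.13, -2.28, -1.97 and -2.04 in unirradiated ileum and -1.91, -1.98, -2.19 and -2.20 in the 6.7-Gy day 4 group. In the 7.4-Gy day 4 group they were -1.79, -1.67, -2.11 and -2.0. Its log2 differences from the controls were 0.03 and 0.21 on day 4, -0.08 and -0.25 on day 7, and 0.11 and -0.10 on day 12, with adjusted p from 0.321 to 0.931. The 6.7-Gy day 7 animals ran from -2.35 to -1.96, and day 12 levels were -2.04 and -1.95 at the lower and -2.20 and -2.22 at the higher dose. All 24 animals lay between -2.51 and -1.67, a range of 1.78-fold, where CYP1A1 spanned 4109-fold over the 23 arrays on which its brighter probe was above background. The difference in the 6.7-Gy day 4 group was -0.025 without control replicate 2, and its direction is not settled. With array position as a covariate the day 4 values were 0.16 and 0.46. The 6.7-Gy day 7 value ran from -0.16 to -0.03 with 1 animal left out and was -0.0027 with normexp background correction. The 6.7-Gy day 12 value was -0.0013 with slide as a block, and the 7.4-Gy day 12 value ran from -0.16 to -0.06 over the animals left out.

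Between days, AHR was lower on day 7 than in the 7.4-Gy day 4 group. The day 7 levels were -2.15, -2.51, -2.30 and -2.45, all below all 4 animals of day 4, as in 6.4% of all tested probes. The log2 difference was -0.46 (standard error 0.13, limma adjusted p = 0.0449), under the 2-fold limit and so not called. The adjusted p ran from 0.0346 to 0.148 over the alternatives that keep all animals, and from 0.0425 to 0.132 with 1 animal left out. The summed macrophage markers, relative to the array, also lay lower in these day 7 animals (47.7 to 55.8, against 72.7 to 85.5 on day 4), as did those of endothelium and T cells given with CYP1B1.

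CYP1B1, the member of the family that is also expressed in stromal cells, gave the single call among the 5 genes. Its levels in the 7.4-Gy day 4 group were 2.18, 1.04, 1.09 and 0.72, whereas the day 7 animals had 0.10, 0.36, -0.13 and 0.19. The groups did not overlap. The log2 difference, day 7 minus day 4, was -1.13 (standard error 0.29, 2.18-fold, limma adjusted p = 0.0369). In this comparison limma called 0.942% of all tested probes, and 6.4% had all day 7 animals below all day 4 animals.

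Summed levels of other cell type markers are given beside it. For macrophages (4 genes tested) the summed level relative to the array was 72.7 to 85.5 in the 7.4-Gy day 4 group, 47.7 to 55.8 in the 7.4-Gy day 7 group and 49.5 to 65.9 in controls. For endothelium (5 genes) it was 3.08 to 4.55, 2.12 to 3.03 and 1.89 to 3.26, and for T cells (6 genes) 14.6 to 17.2, 10.2 to 13.8 and 15.6 to 23.4. In these 3 lists the day 7 animals lay below the day 4 animals of that dose, as they did for CYP1B1 and AHR. By the sum, the other cell type lists overlapped between these days. By the mean of log2 levels, 2 red blood cell markers were also wholly lower on day 7 (-3.86 to -3.31, against -3.13 to -1.78). The summed level of 10 other genes induced through AHR was wholly higher on day 7 (55.6 to 82.6, against 22.3 to 45.2). By the mean of their log2 levels these genes overlapped. Against the controls, 1 of 4 macrophage genes (CD14, log2 difference 1.14, adjusted p = 0.0107) was called higher in the 7.4-Gy day 4 group. So was 1 of 5 endothelial genes (VWF, 1.12, adjusted p = 0.0406), and 0 of 6 T cell genes were. Of all tested genes 1.87% were called higher in that comparison.

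The fibroblast markers, all 6 of them tested, overlapped between these days. Their summed level relative to the array ran from 38.1 to 67.7 in controls, from 79.7 to 144.8 in the 7.4-Gy day 4 group and from 58.2 to 91.8 in the 7.4-Gy day 7 group. Compared with the controls 3 of 6 were called higher in the former group and 0 in the latter, where 1.87% and 0.162% of all tested genes were, and the medians were 0.91 and 0.55. The part of these cell types in the CYP1B1 and AHR levels was not tested.

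The call of CYP1B1 rests on small margins. It was lost with slide as a block, at a difference of -0.92 (adjusted p = 0.15). Without 7.4-Gy day 4 replicate 1 the difference was -0.82 (adjusted p = 0.132), and without replicate 2 or 3 of that group the adjusted p was 0.0518 and 0.0613. Without day 7 replicate 1, 2, 3 or 4 it was 0.0757, 0.0577, 0.108 and 0.0624. The call held without day 4 replicate 4, at a difference of -1.31 (adjusted p = 0.0331).

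Relative to the unirradiated animals, with CYP1B1 levels of 0.68, 1.06, 0.61 and 1.21, the group differences were smaller. On day 7 CYP1B1 was at 0.21, -0.37, 0.69 and -0.20 after 6.7-Gy TBI, a log2 difference of -0.81 (standard error 0.29, adjusted p = 0.336). The difference after 7.4-Gy TBI was -0.76 (adjusted p = 0.258), with all 4 animals below all 4 controls. On day 4 the differences were -0.29 (adjusted p = 0.551) and 0.37 (adjusted p = 0.483), while the day 12 values were 0.14 and -0.61 (adjusted p = 0.931 and 0.726). Array position as a covariate turned the day 4 values to 0.027 and 1.0, and slide as a block turned the 6.7-Gy value of day 12 to -0.067. With 1 animal left out the 6.7-Gy day 4 value ran from -0.51 to -0.17, and that at 7.4 Gy was 0.058 without replicate 1. The 7.4-Gy value of day 12 ran from -0.97 to -0.26. None of these differences was called. Levels were 0.58, 1.25, 0.34 and 0.22 in the 6.7-Gy day 4 group. The day 12 animals had 0.83 and 1.23 at the lower and -0.08 and 0.63 at the higher dose, and these 3 groups overlapped the controls.

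TIPARP encodes a mono-ADP-ribosyltransferase that limits AHR activity, and its transcript is induced by the receptor. Its brighter probe had levels of -2.28, -3.13, -2.82 and -3.16 in unirradiated ileum and of -3.42, -3.49, -3.11 and -3.34 in the 6.7-Gy day 4 group. After 7.4-Gy TBI they were -2.69, -3.46, -3.45 and -3.39. On day 7 they were -3.24, -3.29, -3.16 and -3.49 at the lower dose and -3.24, -3.59, -3.47 and -3.42 at the higher dose. All 4 of the latter lay below all 4 controls by both tested probes, and by the second probe so did the 6.7-Gy animals of day 7. The shares of all probes wholly below the controls on day 7 were 3.51% at 6.7 Gy and 4.24% at 7.4 Gy, where CYP1B1 and TIPARP were 2 of the 5 genes. The mean of 6 T cell markers was also below all controls on day 7 (-0.71 to -0.34 and -0.91 to -0.40, against -0.08 to 0.45). That of 4 markers of AHR-dependent innate lymphocytes was so at 7.4 Gy only (-1.44 to -1.16, against -0.98 to -0.57). The part of these cells in the TIPARP levels was not tested.

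The TIPARP differences from the controls were below 0 in all 6 groups with both tested probes, and none was called. On day 4 they were -0.50 and -0.40 with the brighter probe (adjusted p = 0.133 and 0.2) and -0.66 and -0.68 with the second (adjusted p = 0.0946 and 0.0639). On day 7 they were -0.45 and -0.58 (adjusted p = 0.441 and 0.167) with the brighter probe. The second probe gave -0.69 and -0.87 (adjusted p = 0.228 and 0.0611). On day 12 the brighter probe gave -0.17 and -0.19 (adjusted p = 0.853 and 0.912), and without control replicate 1 these were 0.017 and 0.0020. The second probe gave -0.37 and -0.80 on day 12 (limma adjusted p = 0.709 and 0.344, unadjusted p = 0.178 and 0.00703). By this probe both 7.4-Gy animals were below all 4 controls, as were 9.37% of all tested probes (exact permutation p = 0.133). Without control replicate 1 the second probe gave -0.20 and -0.63.

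Control replicate 1, the animal with the low smooth muscle markers, had the highest TIPARP level of the controls by both tested probes, and the part of tissue makeup in this was not tested. Without that control the brighter probe gave -0.31 and -0.21 on day 4 and -0.26 and -0.40 on day 7. With normexp background correction its day 4 and day 7 values lay between -0.29 and -0.26. The second probe gave -0.49 and -0.51 on day 4 and -0.52 and -0.70 on day 7 without that control, and from -0.49 to -0.40 with normexp. With slide as a random block its adjusted p was 0.046 on day 4 and 0.0385 on day 7 at 7.4 Gy, with differences under the 2-fold limit.

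NQO1 is read by 3 probes that ranked the animals alike (Pearson r of 0.981 to 0.985 over 24 animals). By the brightest, unirradiated ileum had levels of 1.02, 1.55, -0.77 and 1.41. The 6.7-Gy day 4 animals had 1.53, 0.21, 0.18 and 2.50, and the 7.4-Gy day 4 animals 1.35, 1.42, 2.13 and -0.77. Each of these groups held animals far apart, and the groups overlapped. On day 7 the 6.7-Gy animals were at 1.93, 2.41, 2.12 and 1.92, above all 4 controls, and the 7.4-Gy animals at 1.35, 1.38, 1.41 and 1.44, below all 4 of the lower dose. In the 6.7-Gy day 7 group the mean of 5 crypt and cycling cell markers was also above all controls (-0.93 to -0.03, against -1.64 to -1.14). The mean of 6 T cell markers was below all controls (-0.71 to -0.34, against -0.08 to 0.45). The part of these cells in the NQO1 levels was not tested.

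The day 7 difference of NQO1 from unirradiated ileum after 6.7-Gy TBI was 1.30 (standard error 0.57, 2.45-fold, adjusted p = 0.475), with an exact permutation p of 0.0286, and 4.47% of all probes had the group wholly above the controls. It was 0.77 without control replicate 3. Between the doses on day 7 the log2 difference, 7.4 Gy minus 6.7 Gy, was -0.70 (standard error 0.57, adjusted p = 0.992), and 1.85% of all probes were wholly lower. The other differences of NQO1 from the controls lay between 0.23 and 0.67, with adjusted p from 0.681 to 0.945. The 7.4-Gy values, 0.60 on day 7 and 0.67 on day 12, were 0.071 and 0.14 without control replicate 3, and on day 12 the value was 0.11 without replicate 1 and 1.23 without replicate 2 of that group. Those of both day 4 groups and of the 6.7-Gy day 12 group turned below 0 with 1 animal left out, and that of the 7.4-Gy day 4 group was -0.23 with array position as a covariate.

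**Figure D4:**
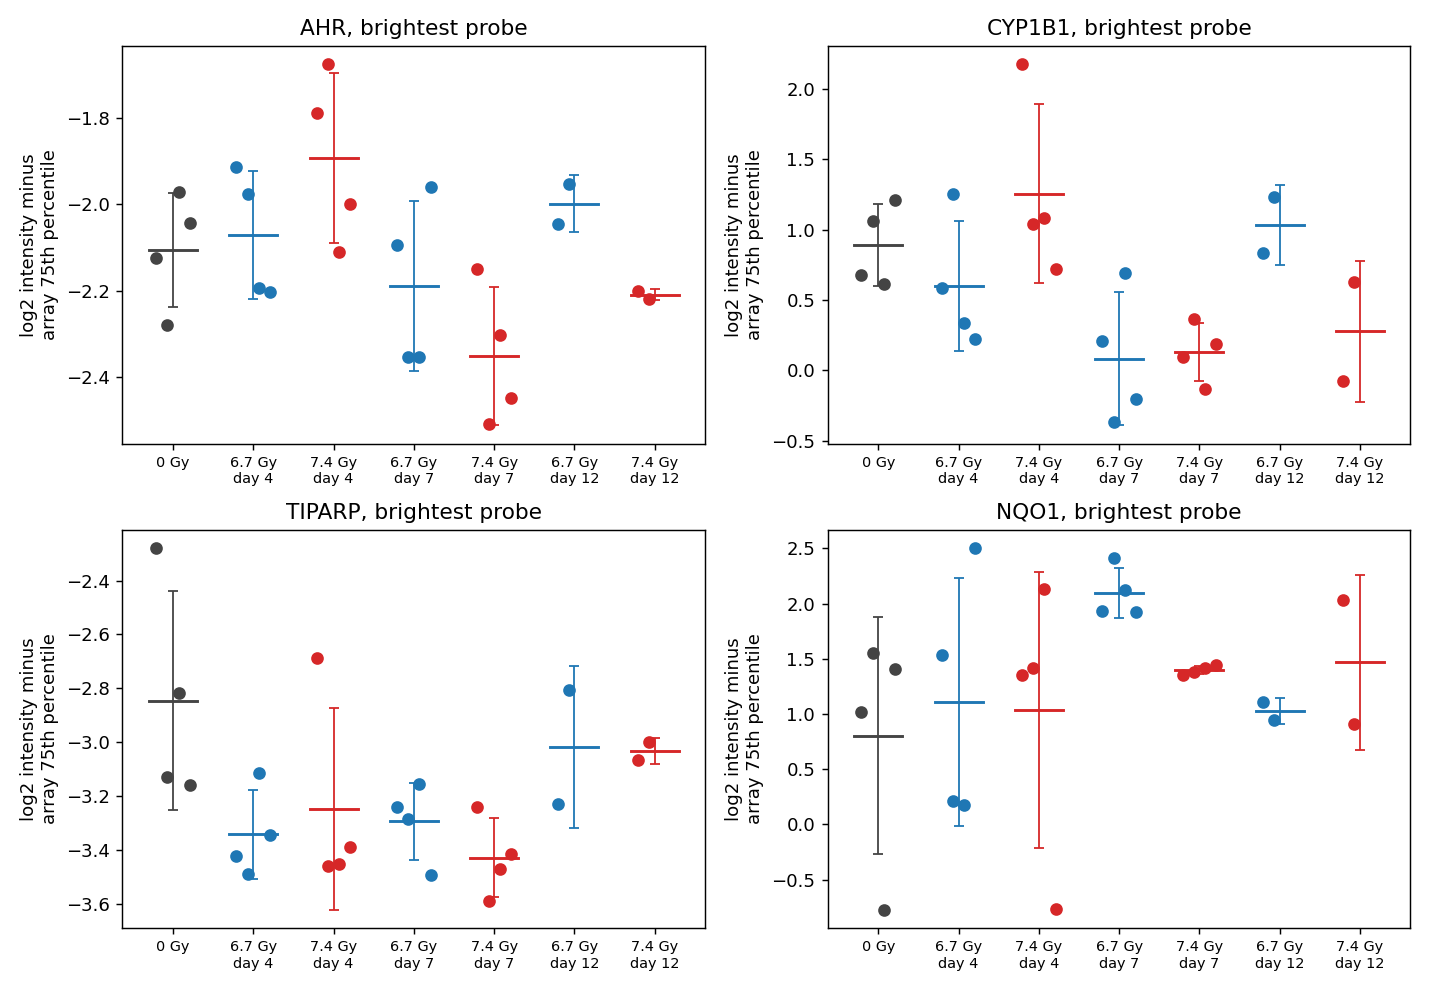
Levels of AHR, CYP1B1, TIPARP and NQO1 (brightest probe; log2 intensity minus the 75th percentile of the array) in each of 24 animals, by group, with the group mean and SD. Each panel has its own y axis. CYP1B1 at 7.4 Gy lies between 0.72 and 2.18 on day 4 and between -0.13 and 0.36 on day 7, and the AHR axis spans less than 1 log2 unit.

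Direct tests between the doses called 0 of the 5 genes on any day by limma, and none on day 7 or day 12 had an unadjusted p under 0.05. On day 4 CYP1B1 had such a p (1 of 5 genes), with an adjusted p of 0.877. In these comparisons limma called 0% of all tested probes on day 4, 0% on day 7 and 0.00277% on day 12. CYP1A1 was higher after 7.4-Gy than after 6.7-Gy TBI by 3.58 on day 4 (adjusted p = 0.877), or by 1.15 without 7.4-Gy day 4 replicate 1, and lower on day 7 and day 12, by log2 differences of -2.01 (adjusted p = 0.992) and -3.35 (adjusted p = 0.868). The day 7 value was -0.86 without 7.4-Gy replicate 4 and -0.20 with array position as a covariate, and the day 12 value ran from -4.81 to -1.90 with 1 animal left out. On day 12 the brightest probes of AHR, CYP1A1 and CYP1B1 had both 7.4-Gy animals below both 6.7-Gy animals, as had 26% of all probes. The change of the dose difference from day to day passed for none of the 9 probes (27 interaction terms, lowest adjusted p 0.532).

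The tests between days called 1 of the 5 genes between day 4 and day 7 at 7.4 Gy, the CYP1B1 difference above, and 0 in the others. Limma called 0.354% of all probes between these days at 6.7 Gy, 2.59% and 1.8% between days 4 and 12 at the lower and the higher dose, and 0.036% and 0.00554% between days 7 and 12. All 4 of the 6.7-Gy day 7 animals had more CYP1A1 than all 4 of the 6.7-Gy day 4 animals, on average by 4.57 log2 units (standard error 1.96, adjusted p = 0.218). The background share of probes wholly higher in that comparison was 7.46%. Both day 12 animals of that dose were also above all 4 of day 4, by 4.83 on average (adjusted p = 0.197), as were 25.4% of all probes. Without 6.7-Gy day 4 replicate 4, which was not above background, these were 3.56 and 3.82.

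Across the 24 animals, CYP1A1 was compared with each other measured gene, with the mean of the enterocyte markers and with the share of probes above background. These are 6 relations, and their permutation p-values (100000 permutations, two-sided) were adjusted over all 6. By pooled levels TIPARP had the highest Pearson r (Pearson r = 0.593, adjusted p = 0.012; Spearman rho = 0.45, adjusted p = 0.173). Without the 2 animals farthest from the median of CYP1A1 the Pearson r was 0.533 (adjusted p = 0.0583). The r of deviations from the group means was 0.523 (adjusted p = 0.0303), below that of CYP1B1 (0.599), and that from the slide means was 0.497 (adjusted p = 0.0733). The permutations of deviations did not allow for the means already removed, so their p-values tend to be too small. The direction held in each, and the rank correlation did not pass.

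CYP1B1 had a Pearson r of 0.427 with CYP1A1 (adjusted p = 0.114; rho = 0.281, adjusted p = 0.559). Of deviations from the group means it was 0.599 (permutation adjusted p = 0.0115, which tends to be too small in the same way). Without the 2 farthest animals the pooled r was 0.186 (adjusted p = 0.568), so the pooled relation rests on those animals. The r of deviations was not computed without them. AHR itself had an r of 0.067 with CYP1A1 (adjusted p = 0.757; rho = 0.046), which was -0.161 without those 2 animals and -0.193 for deviations from the slide means. NQO1 had an r of 0.148 (adjusted p = 0.74; rho = 0.082). The enterocyte markers had an r of 0.261 (adjusted p = 0.438; rho = 0.183), and the share of probes above background one of 0.082 (adjusted p = 0.757; rho = 0.035), or -0.176 as deviations from the group means.

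**Figure D5:**
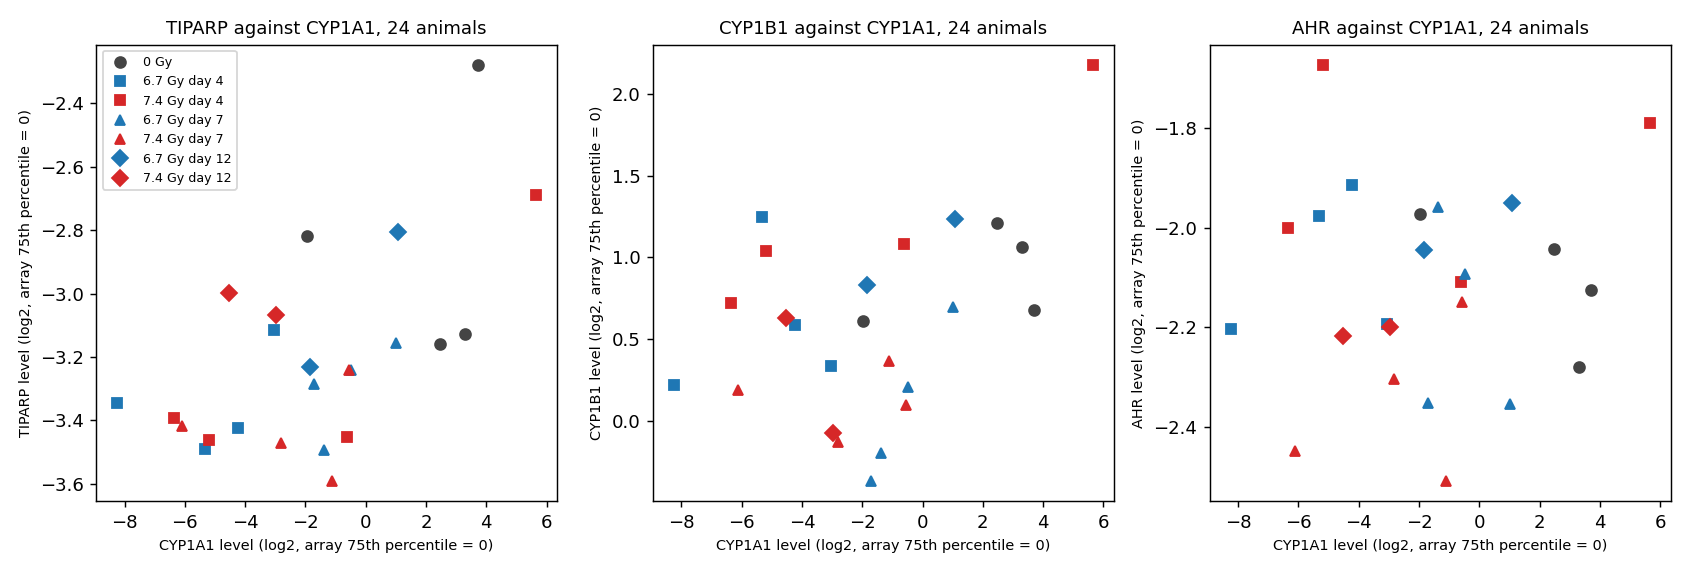
Levels of TIPARP, CYP1B1 and AHR against the level of CYP1A1 (brightest probes; log2 intensity minus the 75th percentile of the array), 1 point for each of 24 animals. Pearson's r was 0.593, 0.427 and 0.067. The red square at the far right, at a CYP1A1 level of 5.65, is 7.4-Gy day 4 replicate 1.

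Single animals stood out in several of the genes. The highest CYP1A1 and CYP1B1 levels of all 24 animals were both in 7.4-Gy day 4 replicate 1, which had the second highest levels of TIPARP and AHR and ranked number 16 for NQO1. Its enterocyte marker mean of 3.15 was number 23 of 24. The lowest CYP1A1 level was in 6.7-Gy day 4 replicate 4, which had the highest NQO1 level and the lowest enterocyte marker mean (2.31), with 76.8% of probes above background. Control replicate 3 had the lowest NQO1 level and ranked number 14 for CYP1A1 and number 4 for TIPARP. Whether the markers or the share of probes have a part in these levels was not tested.

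By a fixed measure of likeness, the Pearson correlation over 24 animals between brightest probes, 14190 genes were compared with CYP1A1. The highest values were those of GPR151 (0.749), an orphan receptor, MAFG (0.742), a small Maf transcription factor, MMP25 (0.675), a membrane-anchored metalloproteinase, TMEM79 (0.672) and LOC718520 (0.658). Of deviations from the group means they were MAFG (0.781), FOXO3 (0.717), a forkhead transcription factor, LOC722432 (0.699), KIT (0.69), a receptor tyrosine kinase, and LOC718520 (0.686). With AHR, the highest values were LOC713351 (0.75), RASA3 (0.75) and CDH9 (0.747), and of deviations UTRN (0.807), PACSIN1 (0.807) and SHOX2 (0.8). These are the highest of all these correlations over few animals and are given as a description.

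The wider pathway was described by 5 lists, each gene by its brightest tested probe. Of 13 tested genes of the AHR complex and its co-regulators, 0 were called in any of the 6 comparisons. Their median log2 changes on day 4 were -0.11 at 6.7 Gy and -0.10 at 7.4 Gy. ARNTL, a circadian factor related to ARNT, had a log2 difference from controls of -0.82 in the 6.7-Gy day 4 group (adjusted p = 0.116) and of -0.10 after 7.4-Gy TBI. HSP90AB1, a chaperone of the unliganded receptor, differed from controls by 0.50 and 0.35 (adjusted p = 0.0845 and 0.186). Over all 14191 tested genes, 1.14% and 2.7% were called on day 4, 0.338% and 0.719% on day 7, and 0.155% and 0.0423% on day 12.

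Among 10 tested other genes induced through AHR, 1 was called, GSTA1 in the 7.4-Gy day 4 group. GSTA1, a glutathione transferase of enterocytes, had a mean level of 2.93 there and of 4.74 in controls, which is a difference of -1.81 on the log2 scale (standard error 0.46, limma adjusted p = 0.026). At the lower dose on that day its log2 difference was -1.46 (adjusted p = 0.0861), and on day 7 the differences were 0.44 and 0.10. SCIN, an actin-severing protein, had log2 differences of -0.88 and -0.83 on day 4 (adjusted p = 0.328 and 0.374). The list had a median of -0.22 and -0.29 on day 4, with 7 of 10 genes below 0 at each dose, where 8220 and 7896 of all 14191 genes were. By the mean of the 10 log2 levels both day 4 groups lay below all controls, at 0.036 to 0.35 after 6.7-Gy TBI, -0.16 to 0.32 after 7.4-Gy TBI and 0.38 to 0.60 in controls. Their summed level relative to the array was 33.2 to 50.8 and 22.3 to 45.2, against 57.6 to 96.9 in controls. The lower mean was not particular to day 4. It was also below all controls in the 7.4-Gy day 7 group (0.12 to 0.31). On day 12 it was so at 6.7 Gy (0.088 to 0.25) and at 7.4 Gy (0.006 to 0.25). The 6.7-Gy day 7 group overlapped the controls (0.21 to 0.41). The part of the lower enterocyte and goblet cell markers of the day 4 groups, given above, was not tested.

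For ligand production and removal, 8 genes were tested and 1 was called. MAOA, a monoamine oxidase, changed by -1.18 in the 7.4-Gy day 4 group (standard error 0.35, adjusted p = 0.0453) and by -0.55 at the lower dose (adjusted p = 0.339). DDC, the aromatic amino acid decarboxylase, had log2 differences of -0.79 and -0.99 (adjusted p = 0.211 and 0.114). The medians on day 4 were 0.22 after 6.7-Gy and -0.32 after 7.4-Gy TBI.

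Of 9 tested NRF2 target genes beside NQO1, 0 were called, and the medians on day 4 were 0.05 and 0.05. HMOX1, the inducible heme oxygenase, had a log2 difference of -0.34 at both doses (adjusted p = 0.342 and 0.347), and ME1, the malic enzyme, differences of -0.40 and -0.23 (adjusted p = 0.503 and 0.745). In the 6.7-Gy day 7 group, where all NQO1 levels were above those of the controls, the list had a median of 0.08 with 7 of 9 genes above 0, none called.

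Among other drug metabolism genes of enterocytes, 10 of 12 tested genes had a day 4 change below 0 at 6.7 Gy and 9 of 12 at 7.4 Gy, where 8220 and 7896 of all 14191 genes did. The medians were -0.53 and -0.42, and 1 gene was called. CES2, a carboxylesterase, had a mean level of 3.26 in the 7.4-Gy day 4 group and of 4.43 in controls, a difference of -1.18 on the log2 scale (standard error 0.29, limma adjusted p = 0.021). ABCG2, an efflux pump of the brush border, had log2 differences of -0.84 and -1.0 (adjusted p = 0.178 and 0.098). On day 7 the medians of this list were -0.03 and -0.18. All genes of the 5 lists that were called were lower, in the 7.4-Gy day 4 group, beside the lower enterocyte markers given above, whose part was not tested.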

How the data were processed

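Ileum RNA of 24 animals was hybridized to Agilent single-color arrays. The authors read them with Feature Extraction 11.0.1.1, which gave background-subtracted intensities per the file headers. For the deposited log2 table they subtracted each array's 75th percentile, and each probe there is also centred on its median.

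From the scanner intensities, log2 values minus the 75th percentile of each array were fitted with limma 3.58.1 (R 4.3.3), 7 group means, 24 arrays. Only probes well above background throughout some group were tested. Adjusted p is limma's p corrected by Benjamini-Hochberg within a comparison, across every tested probe, and called means under 0.05 with at least 2-fold. The fit was tested on simulated data. Relations used Python 3.11.15, numpy 2.4.6 and pandas 2.3.3, figures matplotlib 3.10.9. Genes were named by rule: all members' probes, list genes called or with the largest day 4 changes (2 a list), and the closest correlations. Members and lists were chosen with earlier results of these data known. Replicate numbers do not pair animals. Limma's p-values set a difference of group means against the spread between animals, whose number limits the precision. Alternatives changed the normalization, background, filter, test, block and animals.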

Additional observations from a re-analysis of the deposited data

Results flagged for a closer look

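In the 45 sets of 4 animals formed by the 9 tested probes and 5 groups, 1 animal stood apart from the other 3 by Dixon's criterion, and chance alone gives about 1 in 20. The brighter TIPARP probe in the 7.4-Gy day 4 group had replicate 1 at -2.69, with the nearest other animal at -3.39 (gap over range 0.909).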

How the results depend on the processing

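The number of the 5 genes called was 1 in place of 0 in the 6.7-Gy day 4 group (CYP1A1) with an intensity trend and robust moderation, with slide as a random block, with the exact permutation test and with the replicate block (difference -7.09, adjusted p = 0.0427), and 0 to 1 with 1 animal left out. By the unadjusted exact test it was also 1 in the 6.7-Gy day 7 group (NQO1). Between days 4 and 7 at 7.4 Gy it was 0 in place of 1 with slide as a block, and 0 to 1 with 1 animal left out. The replicate numbers do not pair the animals (correlation of deviations of same-numbered animals, median 0.029), and the block changed no other call, though the adjusted p of the second TIPARP probe on days 4 and 7 was then 0.00597 to 0.0393, under the 2-fold limit. Differences near 0 changed sign: with slide as a fixed block, AHR and CYP1B1 in the 6.7-Gy day 12 group were -0.0013 and -0.067. With array position as a covariate, CYP1B1 in the 6.7-Gy day 4 group was 0.027 and NQO1 in the 7.4-Gy day 4 group -0.23. With 1 animal left out, AHR in the 6.7-Gy day 4 group ran from -0.025 to 0.078, and NQO1 on day 4 from -0.22 to 0.61 and from -0.29 to 0.83. In the 6.7-Gy day 12 group the ranges were -0.058 to 0.34 for CYP1B1, -0.30 to 0.48 for NQO1 and -0.38 to 0.041 for TIPARP, and TIPARP after 7.4-Gy TBI ran from -0.29 to 0.0020. The r of CYP1A1 with AHR was -0.161 without 2 animals and -0.193 within slides, and that with the share of probes above background -0.176 within groups. The cause was not tested. The filter to probes above background on all 24 arrays left CYP1A1 no value. Normexp used median spot signals, since no mean signals are given here, and this and the scan day as a block (CYP1A1 in the 6.7-Gy day 4 group -7.22, adjusted p = 0.0926) were chosen after seeing the data. Position as a covariate could not be fitted for days 7 and 12 against the controls. Groups of 2 animals and signals near background limit the day 12 values and the dimmer CYP1A1 probe.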
